A study of Mus musculus with 9 samples.

Results

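Malat1, Neat1, Terc, Rmrp, Rpph1, Gas5, Snhg1, Snhg3 and Snhg12 are noncoding RNAs that work in or start from the nucleus. They were chosen by name from the gene count table of mouse XEN cells, stem cells of the extra-embryonic endoderm. The 9 RNAs correspond to 10 of the 55401 gene entries in the table, since Rmrp is listed under 2 identifiers. Of the 9 RNAs, 3 (Terc, Rmrp and Rpph1) carry no poly(A) tail and 6 are tailed, or tailed in part. These 6 are called tailed below, although Malat1 and the long form of Neat1 also have ends without an ordinary tail.

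The cells were labelled as female, from a cross of Mus musculus molossinus with Mus musculus. The 4 groups were wild type named WT_EV (n = 3), cells with a deletion on the paternal X chromosome named DeltXp (n = 2), cells with the homozygous deletion named DeltXp_DeltXm (n = 2), and a further wild type, the clones named WT_clone (n = 2). The genotype labels speak of an Xist deletion and the study's title of a deletion upstream of Xist. Its coordinates and the meaning of EV are not given in the sources used. Both DeltXp libraries are named D1 and both DeltXp_DeltXm libraries D3. If these are single lines, line and genotype cannot be told apart. The cells grew in serum medium, and RNA was taken with Trizol into a stranded kit of 1 of 2 named makes. Which make served which library, and whether poly(A) RNA was selected or ribosomal RNA depleted, is not stated in those sources. The study has 2 biological replicates per deletion by its design text. No label ties the WT_EV libraries to separate cultures. A p-value here measures only the spread between these libraries, which may be technical.

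These RNAs differ in how they are made and how they end. Terc is the RNA template of telomerase, Rmrp the RNA of the RNase MRP enzyme and Rpph1 the catalytic RNA of RNase P. They are short, highly structured and have no poly(A) tail. RNase P trims transfer RNA precursors and also cuts Malat1, an abundant RNA of nuclear speckles, and the long form of Neat1, the scaffold of paraspeckles. The cut leaves an end sealed by a triple helix in which a genome-encoded run of A takes part. A short form of Neat1 ends at an ordinary polyadenylation signal. Gas5, Snhg1, Snhg3 and Snhg12 are spliced, polyadenylated RNAs whose introns hold small nucleolar RNAs (snoRNAs), the guides for chemical marks on ribosomal RNA. The introns are processed to snoRNAs, and several of the spliced host RNAs are degraded in the cytoplasm by nonsense-mediated decay.

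The last 50 bases of the annotated transcripts (GENCODE M21, GRCm38) show the letters at these ends. For each RNA they are given for the longest transcript without a retained intron, and for Neat1 also for the short form. They comprise 6 annotated ends with a polyadenylation signal, AATAAA or ATTAAA, in capitals. The ends of the 3 RNAs without a tail and of the long form of Neat1 have neither.
Malat1: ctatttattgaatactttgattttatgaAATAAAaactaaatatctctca
Neat1, short form: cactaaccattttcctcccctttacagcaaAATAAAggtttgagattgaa
Gas5: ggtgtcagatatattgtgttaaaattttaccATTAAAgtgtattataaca
Snhg1: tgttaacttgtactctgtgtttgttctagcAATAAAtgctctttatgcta
Snhg3: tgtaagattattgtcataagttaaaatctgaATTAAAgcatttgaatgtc
Snhg12: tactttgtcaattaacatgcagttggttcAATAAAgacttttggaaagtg
Neat1, long form: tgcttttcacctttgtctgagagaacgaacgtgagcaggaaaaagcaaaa
Terc: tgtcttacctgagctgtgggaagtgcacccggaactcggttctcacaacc
Rmrp: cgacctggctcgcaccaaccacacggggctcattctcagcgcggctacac
Rpph1: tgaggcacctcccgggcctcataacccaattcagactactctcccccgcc
The signal lay 13 to 16 bases from the end in the 6 transcripts that had it. Other annotated transcripts of the tailed RNAs lack it, as it was found in 17 of 25 for Gas5, 11 of 18 for Snhg1, 3 of 5 for Snhg3, 8 of 10 for Snhg12, 3 of 4 for Malat1 and 1 of 4 for Neat1. In all 141767 annotated transcripts, 33.7% held AATAAA or ATTAAA in the last 50 bases of the transcript strand. The share was 50.2% of protein-coding transcripts, 1.33% of snoRNAs and 0 of 22 transcripts classed as ribozymes, a class that holds Rpph1 and one of the Rmrp entries. A match is a description of the letters and not of where a given RNA molecule ends.

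Malat1 has a second end inside the annotated transcript, at the run of A that joins the triple helix. The stretch from base 6634 to base 6755 of Malat1 is shown with the run of 12 A in capitals, followed by the tRNA-like sequence that RNase P frees.
Malat1, bases 6634 to 6755: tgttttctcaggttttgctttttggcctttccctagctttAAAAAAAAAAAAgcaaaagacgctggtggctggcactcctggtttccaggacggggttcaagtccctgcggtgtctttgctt
The run spans bases 6674 to 6685, and the annotated transcript goes on for another 298 bases. The count table has 1 value per gene, so the ends of Malat1 and of Neat1 were not separated.

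The 7 libraries of the main table had 14352719 to 29335803 counts each, and 15331 genes were tested. Of 12 XEN markers, 12 had at least 1 CPM, the count scaled to a common library total, in every WT_EV and every DeltXp_DeltXm library and 11 in every DeltXp library. Their summed level was 32126 to 41045 CPM in WT_EV, 17258 to 32982 CPM in DeltXp and 22469 to 25794 CPM in DeltXp_DeltXm. Lists of 6 markers each for embryonic stem cells, trophoblast and fibroblast feeders summed to at most 3.59, 1.85 and 0.0600 CPM in any library, with Tfap2c, Hand1, Col1a2, Thy1 and Twist1 at 0. Xist was not lower in the libraries labelled as deletions. Its level was 689, 953 and 1562 CPM in WT_EV, 17314 and 15447 CPM in DeltXp, and 5460 and 8951 CPM in DeltXp_DeltXm. Groups are therefore called by their labels, with no check of the deletion from Xist. Its log2 change from WT_EV was 3.94 (SE 0.38, edgeR adjusted p = 1.26e-05) in DeltXp and 2.75 (SE 0.37, adjusted p = 1.2e-04) in DeltXp_DeltXm.

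Among the RNAs without a tail, only Rpph1 could be compared between groups. Terc and both Rmrp entries had 0 counts in all 7 libraries. In each library a count of 0 allows up to 3 counts, a level of 0.116 to 0.180 CPM over the libraries, for counting error only. The annotation of these loci is given beside the 0s.

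Terc (ENSMUSG00000064796) lies on the minus strand at chr3:96414437-96414859 (GRCm38) and spans 423 bases. An unnamed entry (ENSMUSG00000118406) covers 397 of them on the same strand, and it also had 0 counts in all 7 libraries. This leaves 26 bases that belong to Terc alone, at its 5′ end. They are in capitals in the first 80 bases, where the letters ctaaccc at bases 29 to 35 are part of the template for the telomere repeat.
Terc, bases 1 to 80: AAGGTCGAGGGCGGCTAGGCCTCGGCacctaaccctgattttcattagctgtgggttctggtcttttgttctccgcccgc

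Rmrp is listed at chr4:43492783-43493063 (ENSMUSG00000115420, classed as a lincRNA, 281 bases) and at chr4:43492788-43493058 (ENSMUSG00000088088, classed as a ribozyme, 271 bases), both on the minus strand. The shorter entry has no base of its own and the longer has 10, shown in capitals at both ends. Most of this RNA is thus annotated as 2 genes at once.
Rmrp, longer entry: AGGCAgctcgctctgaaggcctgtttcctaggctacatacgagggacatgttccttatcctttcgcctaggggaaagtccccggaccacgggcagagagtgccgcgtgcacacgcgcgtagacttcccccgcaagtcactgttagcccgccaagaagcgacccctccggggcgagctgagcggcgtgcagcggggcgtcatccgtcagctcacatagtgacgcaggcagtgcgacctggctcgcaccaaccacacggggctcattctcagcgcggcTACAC
On the opposite strand, the protein-coding gene Ccdc107 shares 124 bases with Rmrp and had 12 to 237 counts per library.

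Across the whole table, entries without bases of their own were at 0 far more often than others. Of 785 entries whose every exon base is shared with another entry on the same strand, 767 (97.7%) had 0 counts in all 7 libraries, and the highest single count among them was 5. Of the other 54616 entries, 49.3% had 0 counts in all 7 libraries. Among genes for small RNAs, it was 522 of 522 entries without own bases and 3831 of 5205 (73.6%) with some. Overlap on the opposite strand went with no such gap, as 220 of 438 entries (50.2%) wholly covered on that strand alone had counts. Terc and the longer Rmrp entry have a few own bases, under 10% of their length, a limit set after their values were seen. Of 174 such entries 71.3% were at 0, and of the 63 among them for small RNAs 77.8%, close to the 73.6% of all small RNA entries with own bases. The sources used here do not give how the counting treated reads in shared bases. What part the shared bases have in the 0s of Terc and Rmrp was not tested, and no group can be compared by them.

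**Figure D1:**
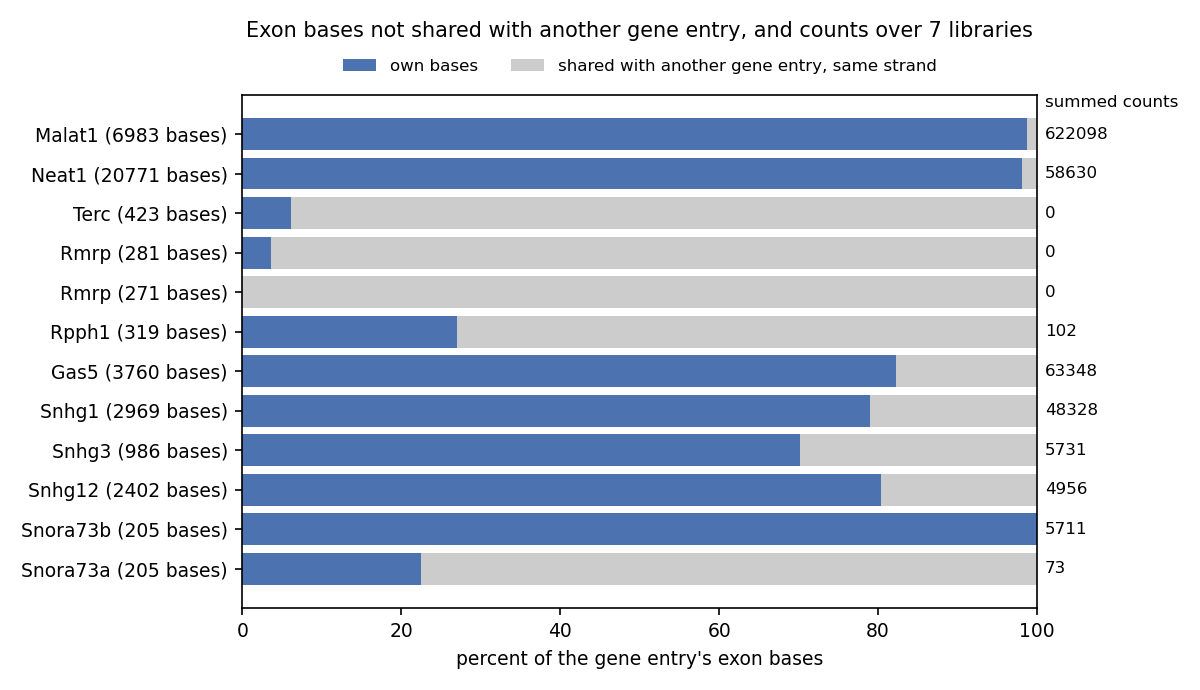
Bars give the percent of each gene entry's exon bases that no other entry shares on the same strand (blue) or that another entry shares (grey), and the numbers at the right are counts summed over 7 libraries. Terc and both Rmrp entries have 6.15% or less of own bases and 0 counts, Rpph1 has 27.0% and 102 counts, and the 6 tailed RNAs have 70.2% to 98.8%.

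Rpph1 (ENSMUSG00000092837, minus strand, chr14:50807449-50807767, 319 bases) fell in both deletion groups. It had 72, 15 and 15 counts in WT_EV replicates 1 to 3 and 0 counts in each of the 4 deletion libraries. In CPM scaled by TMM (a correction for library composition), its level was 4.05, 0.633 and 0.900 in WT_EV. WT_EV replicate 1 was the highest library. With 3 counts taken as the floor for each deletion group, Rpph1 was at least 26.6-fold lower in DeltXp and at least 29.0-fold lower in DeltXp_DeltXm (edgeR quasi-likelihood test, adjusted p = 0.00321 and 0.00335). Rpph1 passed the filter on low counts through WT_EV alone, so that a difference from the other groups was fixed by the filter. Without WT_EV replicate 1 these bounds were 11.3-fold and 12.3-fold. With offsets for GC content and gene length the call was lost (adjusted p = 0.184 and 0.191). In bulk samples, fewer cells that make an RNA and less of it per cell cannot be told apart.

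Of Rpph1's 319 bases, 233 are shared on the same strand with Ccnb1ip1, a protein-coding gene. The 86 own bases are numbers 1 to 35 and 269 to 319. The first 100 bases are shown with the own bases in capitals.
Rpph1, bases 1 to 100: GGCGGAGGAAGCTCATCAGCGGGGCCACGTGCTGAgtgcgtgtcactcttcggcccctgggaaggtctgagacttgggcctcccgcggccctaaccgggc
Ccnb1ip1 had 176, 326 and 53 counts in WT_EV, 126 and 17 in DeltXp, and 1 and 28 in DeltXp_DeltXm. Its log2 change was -1.35 (SE 1.13, adjusted p = 0.309) in DeltXp and -3.95 (SE 1.33, adjusted p = 0.0275) in DeltXp_DeltXm. Its counts in DeltXp overlapped those of WT_EV, unlike those of Rpph1.

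Other structural RNAs without a tail are described beside Rpph1. In a list of 11, 9 passed the filter on low counts. Of these, 8 were high in WT_EV and had at most 11 counts in any deletion library. They passed mainly through WT_EV, and their direction is a description with nothing read from its count. Of all genes tested, 72.3% were called in DeltXp, 32.2% as higher and 40.1% as lower, and 66.8% were called in DeltXp_DeltXm, 30.9% as higher and 36.0% as lower. Rn7sk, which keeps the elongation factor P-TEFb in an inactive complex, had 255029, 194648 and 157188 counts in WT_EV and 3, 4, 2 and 7 in the deletion libraries. Rnu12, an RNA of the minor spliceosome, had 1601, 1584 and 877 counts in WT_EV and 0, 2, 1 and 2 in the deletion libraries. Rnu11, its partner there, had 0 counts in every deletion library against 329 to 717 in WT_EV. The Y RNAs Rny1 and Rny3, bound by the Ro protein, had 4 to 11 counts per deletion library against 718 to 4653 per WT_EV library. The 1 gene that rose, Rnu73b, is a snoRNA entry of 71 bases with 74 to 141 counts per deletion library against 14 to 40 per WT_EV library (log2 change 2.08 and 1.40, adjusted p = 0.0031 and 0.0258). Histone messenger RNAs, most of which also lack a tail, took 0.00129% to 0.00686% of counts in the deletion libraries against 0.977% to 2.45% in WT_EV. These differences in tail-free RNA run along the groups, so kit or RNA selection and genotype cannot be told apart for them. The same limit holds for every RNA compared between WT_EV and the deletion groups, tailed or not.

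**Figure D2:**
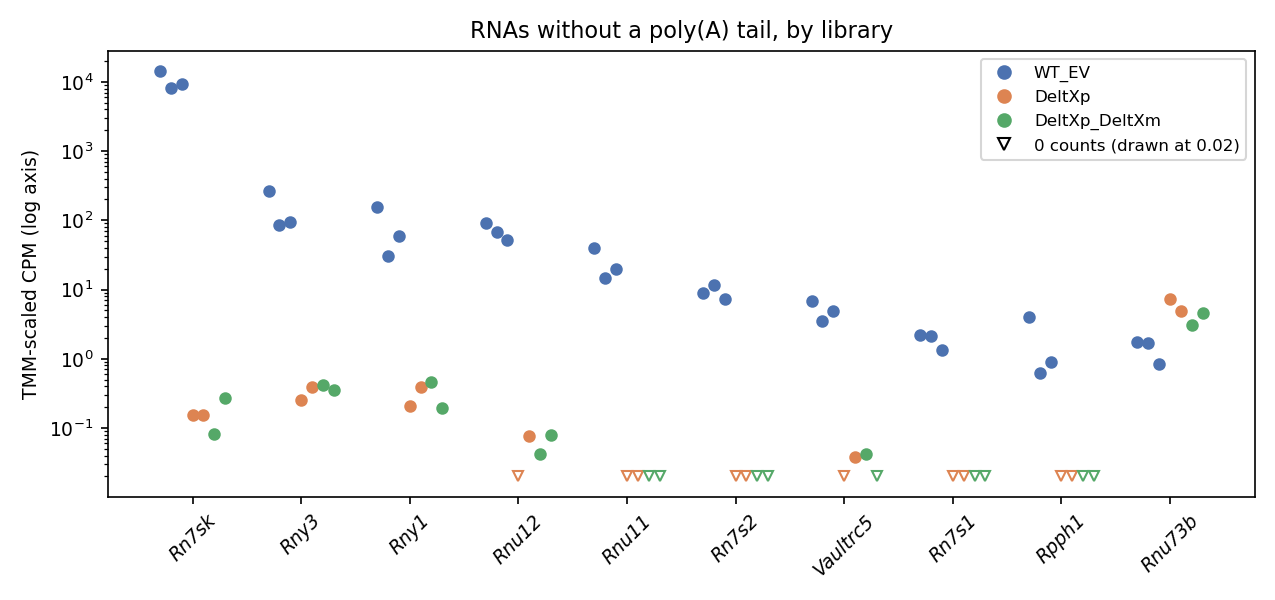
Points are libraries, the vertical axis is TMM-scaled CPM on a log scale, and open triangles mark 0 counts. Every RNA but Rnu73b has its 3 WT_EV libraries far above the 4 deletion libraries, with Rpph1 at a WT_EV mean of 1.86 CPM.

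The contrast of Rpph1 with the tailed RNAs can be read within each library. Terc, Rmrp and Rpph1 together had 72, 15 and 15 counts in WT_EV and 0 elsewhere. The 6 tailed RNAs took 0.406%, 0.923% and 0.697% of counts in WT_EV, 0.468% and 0.495% in DeltXp, and 0.423% and 0.327% in DeltXp_DeltXm. The tailed sum thus overlapped between the groups, and the untailed sum, which is Rpph1 alone, did not. Malat1 made up 64.6% to 85.5% of the tailed sum in each library, so this contrast is mostly one of Malat1 with Rpph1. Malat1 is also cut by RNase P to an end without an ordinary tail, and its ends were not separated. The contrast is therefore not a clean one of tailed with untailed RNA. The difference of mean log2 CPM (prior count 2), untailed minus tailed, was -9.14, -10.50 and -9.63 in WT_EV, -11.35 and -11.44 in DeltXp, and -11.51 and -11.20 in DeltXp_DeltXm. Terc and Rmrp enter it at the prior count in every library, and Rpph1 in the deletion libraries. The difference therefore holds no level of Terc or Rmrp in any group.

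Of the 7 RNAs with counts, all of which were tested, Gas5 and Snhg1 rose, Rpph1 fell and 4 were not called in either deletion group. With 72.3% and 66.8% of all genes called, 3 of 7 is below the background in both comparisons. The 3 include Rpph1, whose difference was fixed by the filter on low counts. Where groups are said to overlap or not, the share of all genes is not given beside it. Such statements describe these libraries only. The 2 comparisons share the WT_EV libraries. In both, kit or RNA selection and genotype cannot be told apart, for tailed RNAs too. No RNA of the 6 with counts in these groups was called between DeltXp_DeltXm and DeltXp, where 0.444% of all genes were. There 1 of the 6, Snhg1, had an unadjusted p under 0.05 with edgeR, and DESeq2 called 0. The median of all genes moved by scaling. In DeltXp it was -0.35 with TMM and -0.20 with RLE size factors, and in DeltXp_DeltXm -0.15 and -0.10.

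**Figure D3:**
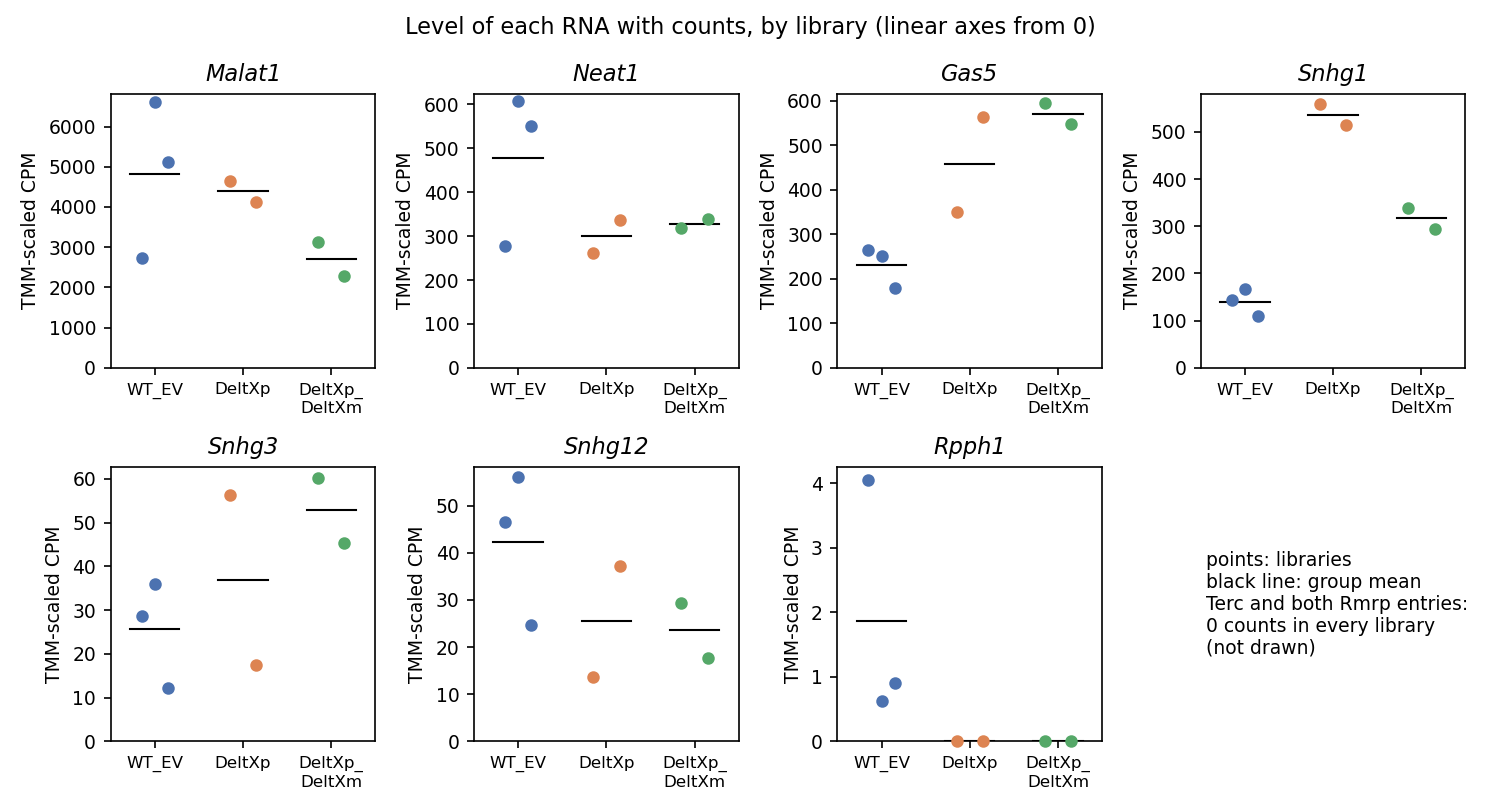
Each panel plots the TMM-scaled CPM of 1 RNA on a linear axis, with points for libraries and a line for the group mean. Gas5 and Snhg1 lie above WT_EV in all 4 deletion libraries, Rpph1 is at 0 in all 4, and WT_EV replicate 1 is the lowest WT_EV library for Malat1 and Neat1.

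Malat1 (ENSMUSG00000092341, chr19:5795690-5802672, minus strand) was the most abundant of the set. Its level was 2729, 6605 and 5127 CPM in WT_EV, 4649 and 4133 CPM in DeltXp, and 3141 and 2272 CPM in DeltXp_DeltXm. WT_EV replicate 1 was the lowest WT_EV library and lay among the deletion libraries. Its log2 change from WT_EV was -0.13 (SE 0.35, adjusted p = 0.744) in DeltXp, with an interval of -1.12 to 0.85, and 0.03 with RLE size factors. In DeltXp_DeltXm it was -0.83 (SE 0.36, adjusted p = 0.0636), and -1.14 (adjusted p = 0.010) without WT_EV replicate 1.

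Neat1 (ENSMUSG00000092274, chr19:5824708-5845478, minus strand) neighbours Malat1. Its level was 277, 607 and 551 CPM in WT_EV, 262 and 338 CPM in DeltXp, and 318 and 338 CPM in DeltXp_DeltXm. Again WT_EV replicate 1 was low and overlapped the deletion libraries, while the other WT_EV libraries were above all of them. The log2 change was -0.68 (SE 0.33, adjusted p = 0.0864) in DeltXp and -0.55 (SE 0.33, adjusted p = 0.162) in DeltXp_DeltXm. Without WT_EV replicate 1 it passed the threshold, at -0.97 (adjusted p = 0.00913) and -0.84 (adjusted p = 0.0199).

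Malat1 counts per Neat1 count were 9.84, 10.9 and 9.31 in WT_EV, 17.8 and 12.2 in DeltXp, and 9.89 and 6.72 in DeltXp_DeltXm. The ratio spread little in WT_EV (SD 0.799, n = 3), although both RNAs varied more than 2-fold there. It was above the WT_EV range in both DeltXp libraries. The ratio holds no correction for GC content or length. With such offsets the log2 change in DeltXp was -1.86 for Malat1 and -1.56 for Neat1, against -0.13 and -0.68 without. The order of the 2 changes was thus reversed.

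An entry on the other strand, Gm37376, lies wholly inside Malat1 and was singled out after its values were seen. It had 4, 2 and 8 counts in WT_EV, 134 and 182 in DeltXp, and 71 and 87 in DeltXp_DeltXm. Per Malat1 count this was 0.00825%, 0.00128% and 0.00936% in WT_EV, against 0.0937% to 0.170% with a deletion. The groups did not overlap. Its log2 change was 4.75 (SE 0.62, adjusted p = 7.91e-05) in DeltXp and 3.63 (SE 0.61, adjusted p = 5.34e-04) in DeltXp_DeltXm. Gm37376 passed the filter on low counts mainly through the deletion libraries, so its direction is a description. Of 42 tested entries wholly covered on the opposite strand only, 10 were higher and 21 lower in DeltXp. Whether these counts are antisense RNA or reads given the wrong strand was not tested.

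Gas5 (ENSMUSG00000053332, chr1:161034422-161038539, plus strand), an RNA named for its rise in growth-arrested cells, rose in both deletion groups. Its level was 264, 251 and 179 CPM in WT_EV, 350 and 564 CPM in DeltXp, and 595 and 547 CPM in DeltXp_DeltXm. The 4 deletion libraries all lay above the 3 WT_EV libraries. The log2 change was 0.98 (SE 0.27, adjusted p = 0.00778) in DeltXp, with an interval of 0.23 to 1.73, and 1.30 (SE 0.27, adjusted p = 0.0018) in DeltXp_DeltXm, with an interval of 0.56 to 2.05. The DeltXp call was lost without DeltXp replicate 2 (0.61, adjusted p = 0.0977).

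Gas5 is the only member whose entry was held in the WT_clone table, of which part was used. Over the genes shared by both tables, Gas5 was at 1511, 1430 and 1031 CPM in WT_EV, 1530 and 2494 CPM in DeltXp, 2505 and 2411 CPM in DeltXp_DeltXm, and 1805 and 3266 CPM in WT_clone. The 2 wild-type groups did not overlap, and 3 of the 4 deletion libraries lay between the WT_clone libraries. WT_clone exceeded WT_EV with a log2 difference of 0.94 (SE 0.32, adjusted p = 0.0479), where 30.6% of 3302 genes were called. That call was lost with RLE size factors (0.83, adjusted p = 0.073) and without WT_clone replicate 2 (0.47, adjusted p = 0.321). It was also lost without any 1 of the WT_EV or DeltXp_DeltXm libraries, with adjusted p from 0.0616 to 0.122. In the same fit, Gas5 against WT_EV was at 0.60 (interval -0.23 to 1.44, adjusted p = 0.120) in DeltXp, so that this call was lost, and at 0.89 (interval 0.06 to 1.72, adjusted p = 0.034) in DeltXp_DeltXm, where 66.3% and 58.4% of genes were called. The difference from WT_clone was -0.33 (interval -1.26 to 0.59, adjusted p = 0.482) in DeltXp and -0.04 (interval -0.97 to 0.88, adjusted p = 0.967) in DeltXp_DeltXm. Of the same genes, 40.2% and 25.0% were called in these comparisons. With offsets for GC content and length these differences were -1.16 (adjusted p = 0.0757) and -0.70 (adjusted p = 0.322), and the WT_clone call against WT_EV was lost (0.79, adjusted p = 0.125).

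Snhg1 (ENSMUSG00000108414, chr19:8723475-8726443, plus strand) rose in both deletion groups. Its level was 143, 168 and 111 CPM in WT_EV, 559 and 514 CPM in DeltXp, and 340 and 295 CPM in DeltXp_DeltXm. DeltXp was the highest of the 3 groups and WT_EV the lowest. The log2 change was 1.93 (SE 0.24, adjusted p = 4.99e-05) in DeltXp and 1.17 (SE 0.23, adjusted p = 0.00146) in DeltXp_DeltXm. Between the deletion groups it was -0.76 (SE 0.26, adjusted p = 0.148), with an interval of -1.48 to -0.03.

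Snhg3 (ENSMUSG00000085241, chr4:132348014-132353686, minus strand) was at 28.8, 36.0 and 12.2 CPM in WT_EV, 56.4 and 17.4 CPM in DeltXp, and 60.3 and 45.4 CPM in DeltXp_DeltXm. One DeltXp library lay within the WT_EV range and the other above it, and both DeltXp_DeltXm libraries were above it. On the log2 scale Snhg3 was at 0.52 (SE 0.53, adjusted p = 0.395) in DeltXp and 1.04 (SE 0.53, adjusted p = 0.107) in DeltXp_DeltXm. The first was -0.44 without DeltXp replicate 1. The second passed the threshold without DeltXp replicate 1 (1.12, adjusted p = 0.0345) or 2 (1.05, adjusted p = 0.0467).

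Snhg12 (ENSMUSG00000086290, chr4:132308623-132311024, plus strand), which lies near Snhg3, was at 46.4, 56.1 and 24.7 CPM in WT_EV, 13.7 and 37.2 CPM in DeltXp, and 29.4 and 17.6 CPM in DeltXp_DeltXm. The groups overlapped. On the log2 scale Snhg12 was at -0.73 (SE 0.48, adjusted p = 0.190) in DeltXp and -0.85 (SE 0.48, adjusted p = 0.143) in DeltXp_DeltXm. The first was -0.07 (adjusted p = 0.909) without DeltXp replicate 1 and passed the threshold without DeltXp replicate 2 (-1.62, adjusted p = 0.0268). The second passed it without WT_EV replicate 3 (-1.14, adjusted p = 0.0487).

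The proportions of the host RNAs differed between the libraries, with no test run on them. Gas5 counts per Snhg12 count were 5.69, 4.48 and 7.27 in WT_EV, 25.5 and 15.1 in DeltXp, and 20.2 and 31.0 in DeltXp_DeltXm. Snhg1 counts per Snhg12 count were 3.08, 2.99 and 4.50 in WT_EV, 40.8 and 13.8 in DeltXp, and 11.5 and 16.7 in DeltXp_DeltXm. Both ratios were above the WT_EV range in all 4 deletion libraries. Scaling between libraries plays no part in them, but they hold no correction for GC content or length. With such offsets the log2 changes of Gas5, Snhg1 and Snhg12 in DeltXp were -0.36, 0.52 and -0.68, against 0.98, 1.93 and -0.73 without. In DeltXp_DeltXm they were 0.17, 0.07 and -0.99, against 1.30, 1.17 and -0.85.

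Per kilobase of all annotated exon bases, Malat1 was the highest RNA in every group. Its level was 690 ± 280 CPM per kb in WT_EV (SD, n = 3), 629 ± 52.2 in DeltXp (n = 2) and 388 ± 88.0 in DeltXp_DeltXm (n = 2). These bases number 3760 for Gas5 and 2969 for Snhg1, where their longest transcripts without a retained intron have 665 and 709. The order given here holds for all annotated exon bases and can differ on spliced lengths. Gas5 was the next in WT_EV at 61.5 ± 12.1 CPM per kb, before Snhg1 at 47.3 ± 9.58. In DeltXp Snhg1 was ahead, at 181 ± 10.6 against 121 ± 40.2 CPM per kb for Gas5. In DeltXp_DeltXm Gas5 was ahead again, at 152 ± 9.07 against 107 ± 10.6 CPM per kb for Snhg1. Snhg3, Neat1 and Snhg12 followed in WT_EV at 26.0 ± 12.4, 23.0 ± 8.49 and 17.6 ± 6.70 CPM per kb, with spreads that overlap. Rpph1 was at 5.84 ± 5.96 CPM per kb over all its bases, the lowest of the RNAs with counts. Per kilobase of own bases it was at 21.6 ± 22.1, beside 21.9 ± 8.33 for Snhg12 and 23.5 ± 8.65 for Neat1, so its place depends on the bases counted.

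**Figure D4:**
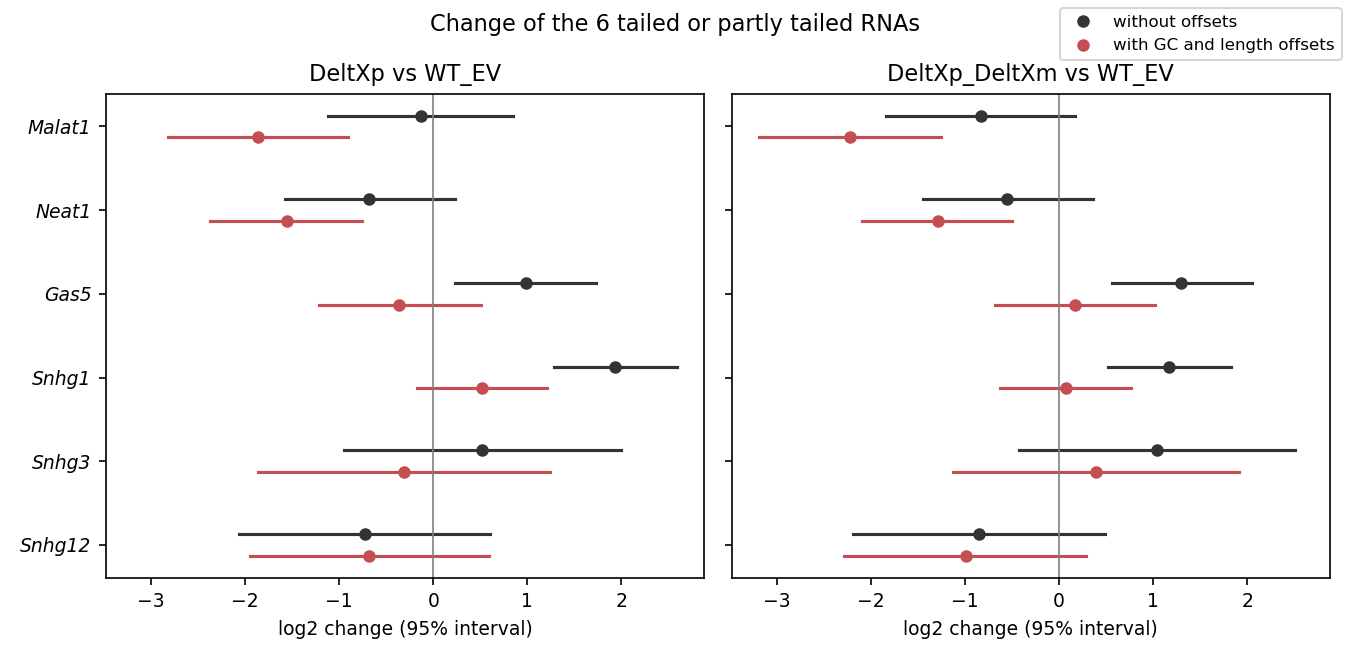
Points are log2 changes from WT_EV with 95% intervals for the 6 tailed RNAs, without (black) and with (red) offsets for GC content and gene length. With offsets, Gas5 and Snhg1 move to values between -0.36 and 0.52, and Malat1 and Neat1 to values between -2.22 and -1.29.

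Which tailed RNAs were called depended on a correction for base composition and length. The 2 were fitted together, and their parts were not separated. The annotated exon bases were 6983 in Malat1, 20771 in Neat1, 3760 in Gas5, 2969 in Snhg1, 986 in Snhg3 and 2402 in Snhg12. The GC content of the longest annotated transcript was 40.5% in Snhg1, 42.3% in Gas5, 42.5% in Malat1 and 42.7% in Snhg3, and 47.3% in Neat1 and 47.6% in Snhg12. With offsets for GC content and length, fitted in each library over all genes, Gas5 was at -0.36 (adjusted p = 0.359) in DeltXp and 0.17 (adjusted p = 0.674) in DeltXp_DeltXm. Snhg1 was at 0.52 (adjusted p = 0.108) and 0.07 (adjusted p = 0.851). Malat1 then passed the threshold at -1.86 (adjusted p = 0.0019) in DeltXp and -2.22 (adjusted p = 0.00126) in DeltXp_DeltXm, and Neat1 at -1.56 (adjusted p = 0.00195) and -1.29 (adjusted p = 0.00615). The offsets thus exchanged the 2 higher calls for 2 lower ones in both comparisons. With and without them, Gas5 and Snhg1 had higher values than Malat1 and Neat1 in both comparisons. Which fit is nearer to the RNA levels was not tested.

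The snoRNAs inside the host RNAs give a view of the introns. The table has 25 snoRNA entries within Gas5 (10), Snhg1 (8), Snhg12 (5) and Snhg3 (2). The 23 entries in the first 3 hosts have no base of their own, as annotated host exons cover them, and all 23 had 0 counts. No group can be compared by them.

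Snora73b (ENSMUSG00000065353, chr4:132352322-132352526, minus strand), an H/ACA snoRNA in an intron of Snhg3, has all 205 bases to itself. Its sequence is given with the ACA box near the 3′ end in capitals.
Snora73b: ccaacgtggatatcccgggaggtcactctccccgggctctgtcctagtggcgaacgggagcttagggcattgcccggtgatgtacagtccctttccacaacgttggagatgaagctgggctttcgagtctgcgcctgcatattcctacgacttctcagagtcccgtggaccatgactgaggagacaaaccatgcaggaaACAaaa
It had 1482, 3053 and 1133 counts in WT_EV, 2 and 7 in DeltXp, and 25 and 9 in DeltXp_DeltXm. For Snora73b the fitted log2 change was -8.86 (SE 0.66, adjusted p = 4.58e-06) in DeltXp and -7.07 (SE 0.58, adjusted p = 1.04e-05) in DeltXp_DeltXm. Snora73b passed the filter on low counts mainly through WT_EV, so its direction is a description. Per count of its host Snhg3 it had 2.90, 3.57 and 5.58 counts in WT_EV, 0.00181 and 0.0156 in DeltXp, and 0.0172 and 0.00779 in DeltXp_DeltXm. The snoRNA without a tail was lower with a deletion, while its tailed host was not called in either direction. Kit or RNA selection and genotype cannot be told apart for Snora73b, as for the other RNAs compared with WT_EV. Snora73a, with 46 own bases of 205, had 0 to 4 counts per deletion library against 20, 37 and 11 in WT_EV. The pair is identical at 198 of 205 bases (96.6%), so reads of the 2 copies may not be told apart.

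**Figure D5:**
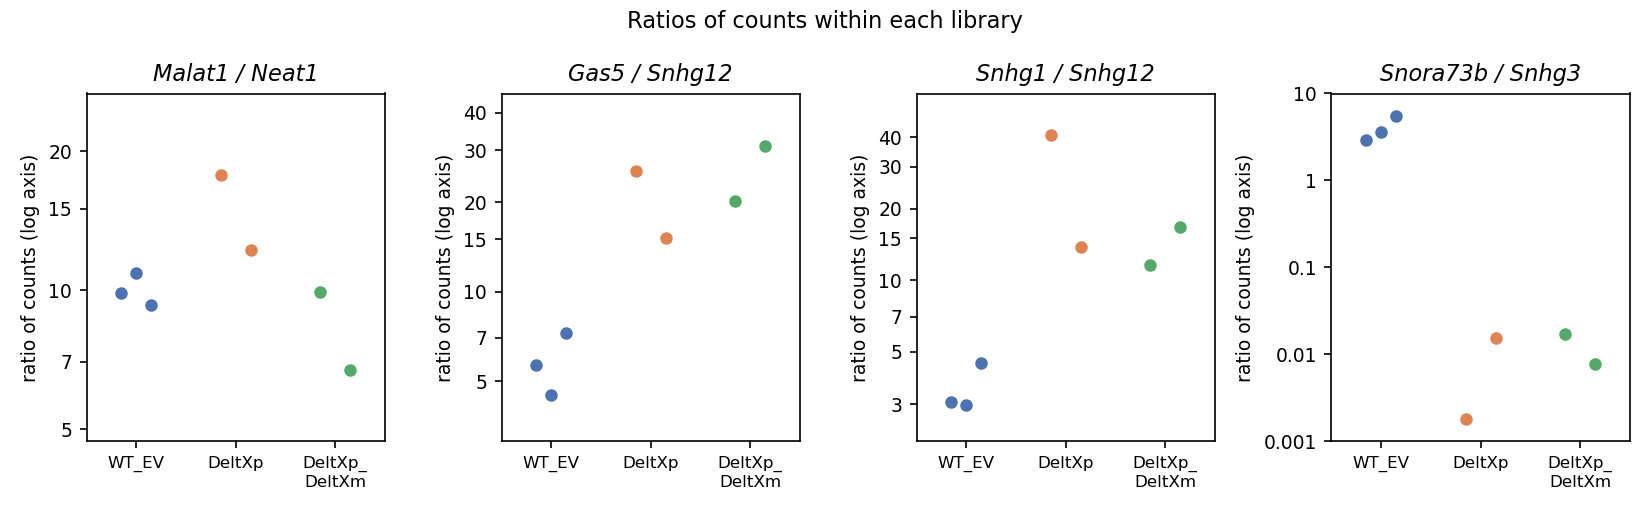
Points are ratios of counts within each library, on log axes. Snora73b per Snhg3 lies between 2.90 and 5.58 in WT_EV and below 0.02 in the deletion libraries, and both ratios to Snhg12 lie above the WT_EV range in all 4 deletion libraries.

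Protein-coding genes that overlap 2 of the hosts were read beside them. Rcc1, a nuclear exchange factor for Ran, shares 135 bases with Snhg3 on the same strand. It had 1789, 2385 and 1012 counts in WT_EV, 84 and 211 in DeltXp, and 515 and 209 in DeltXp_DeltXm. It fell, with log2 changes of -3.80 (SE 0.51, adjusted p = 1.05e-04) and -2.56 (SE 0.48, adjusted p = 0.00102). With offsets these were -1.90 (adjusted p = 0.00386) and -0.96 (adjusted p = 0.0676). Snhg3 counts per Rcc1 count were 0.286, 0.358 and 0.201 in WT_EV, and 2.13 to 13.1 with a deletion. Zbtb37, a zinc finger gene that starts within the span of Gas5 on the opposite strand, rose, with log2 changes of 2.10 (SE 0.28, adjusted p = 9.68e-05) and 2.38 (SE 0.29, adjusted p = 6.47e-05). With offsets its change was -0.01 (adjusted p = 0.970) and 0.82 (adjusted p = 0.0184).

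Gas5, Snhg1 and Snhg12 are host genes with promoters of the type known for ribosomal protein genes, whose RNAs begin in a pyrimidine tract. RefSeq promoters (GRCm38.p6) matched 5 of the 9 RNAs, with 2 starts for Gas5. The letters TATA on the gene's own strand, the only one searched, 50 to 16 bases before the start, were found for the downstream start of Gas5 and for Snhg1 and Snhg12, and in 7.46% of 32851 promoters. The segments from 60 bases before to 40 after the start are shown for these, with TATA in capitals, since Gas5 and Snhg1 rose and Snhg12 was not called.
Gas5, chr1:161035106-161035205: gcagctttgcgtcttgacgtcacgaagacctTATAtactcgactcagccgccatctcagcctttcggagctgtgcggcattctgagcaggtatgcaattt
Snhg1, chr19:8723427-8723526: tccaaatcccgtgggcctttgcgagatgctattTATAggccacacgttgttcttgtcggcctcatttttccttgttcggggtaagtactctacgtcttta
Snhg12, chr4:132308618-132308717: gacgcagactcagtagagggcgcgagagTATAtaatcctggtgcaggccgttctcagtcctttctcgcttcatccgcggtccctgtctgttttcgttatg
The longest run of C and T from 10 bases before to 30 after the start was 6 bases in Gas5 and 9 in Snhg1 and Snhg12. A run of at least 6 was found in 35.2% of promoters and a run of at least 9 in 9.17%. Snhg1, which rose, and Snhg12, which was not called, had both features.

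Other snoRNA hosts were called in both directions. Of 20 tested in a list of 24, 4 rose, 11 fell and 5 were not called in DeltXp, and 4 rose, 9 fell and 7 were not called in DeltXp_DeltXm. For this and the lists that follow, the shares of all genes tested were 32.2% higher and 40.1% lower in DeltXp and 30.9% higher and 36.0% lower in DeltXp_DeltXm. With offsets, 3 hosts rose and 10 fell in DeltXp, and 5 rose and 6 fell in DeltXp_DeltXm. Their median log2 change was -1.35 and -0.71, against -0.35 and -0.15 for all genes tested. Snhg9 of this list had 35 to 125 counts per WT_EV library and 0 per deletion library. It passed the filter on low counts through WT_EV alone, so its direction is a description. Rpsa and Rpl13a, messenger RNAs of ribosomal proteins, fell by 3.92 and 4.88 (log2) in DeltXp (adjusted p = 5.39e-06 and 5.84e-06). Ncl, which encodes nucleolin, rose by 2.17 in DeltXp_DeltXm (SE 0.24, adjusted p = 3.8e-05), and by 0.71 with offsets (adjusted p = 0.0213). Of 12 tested long noncoding RNAs in another list, 2 rose in each comparison, Xist and Tug1, with Tug1 at 2.32 (SE 0.26, adjusted p = 2.93e-05) in DeltXp and 1.72 (SE 0.26, adjusted p = 2.52e-04) in DeltXp_DeltXm. In DeltXp 3 fell and 7 were not called, and in DeltXp_DeltXm 1 fell and 9 were not called. Lncpint of this list, with 16 to 32 counts per WT_EV library and 2 to 5 per deletion library, also passed the filter mainly through WT_EV. With offsets Tug1 lost both calls, at 0.04 (adjusted p = 0.914) and 0.10 (adjusted p = 0.797). The list then had 1 higher and 6 lower in DeltXp, and 1 higher and 4 lower in DeltXp_DeltXm.

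Genes for proteins that bind these RNAs were called in both directions, beside 32.2% higher and 40.1% lower of all genes in DeltXp, and 30.9% and 36.0% in DeltXp_DeltXm. Of 17 paraspeckle and speckle proteins, partners of Neat1 and Malat1, 10 rose, 4 fell and 3 were not called in DeltXp, and 11, 4 and 2 in DeltXp_DeltXm. Hnrnph3, a paraspeckle protein, rose by 2.23 in DeltXp (adjusted p = 3.52e-05), and Tardbp, which encodes TDP-43, by 2.01 in DeltXp_DeltXm (adjusted p = 8.59e-05). Smarca4, the ATPase of a chromatin remodeller, fell by 4.78 (adjusted p = 4.58e-06) and 3.52 (adjusted p = 1.62e-05). With offsets, 5 of the 17 rose in each comparison, and Tardbp lost its call (0.51, adjusted p = 0.0785). Of 10 telomerase partners, 1 rose and 5 fell in DeltXp and 2 rose and 4 fell in DeltXp_DeltXm. Naf1, an assembly factor of H/ACA RNAs, rose by 2.58 (adjusted p = 8.96e-06) and 2.18 (adjusted p = 3.24e-05), while Nhp2, an H/ACA core protein, fell by 6.10 (adjusted p = 4.46e-06) and 5.02 (adjusted p = 7.61e-06). Of 10 tested protein genes of RNase P and RNase MRP, 2 rose and 5 fell in DeltXp, and 1 rose and 5 fell in DeltXp_DeltXm. Pop7 fell by 5.48 and 5.26 (adjusted p = 2.26e-05 and 3.79e-05), and Rpp30 rose by 2.08 in DeltXp_DeltXm (adjusted p = 9.28e-05). Pop7 had 144 to 267 counts per WT_EV library and 4 to 10 per deletion library. Rpp25l of the same list had 90 to 376 and 2 to 9. Both passed the filter on low counts mainly through WT_EV, so their direction is a description.

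Genes that make or degrade these RNAs were also called in both directions, against the same shares of all genes (32.2% and 40.1%, 30.9% and 36.0%). Of 12 snoRNP proteins, a list that shares Dkc1, Nop10, Nhp2 and Gar1 with the telomerase partners, 2 rose and 8 fell in DeltXp and 2 rose and 7 fell in DeltXp_DeltXm. Ruvbl2, an assembly ATPase, fell by 5.61 (adjusted p = 4.58e-06) and 5.29 (adjusted p = 8.34e-06). Of 12 factors of nonsense-mediated decay, which degrades Gas5 RNA, 3 rose and 6 fell in DeltXp, and 3 rose and 5 fell in DeltXp_DeltXm, shares near those of all genes. Upf1, the helicase at its core, fell by 3.24 (adjusted p = 4.97e-06) and 3.57 (adjusted p = 7.61e-06), and Smg9 by 5.58 (adjusted p = 4.58e-06) and 5.44 (adjusted p = 8.14e-06). With offsets Upf1 was at -0.35 in DeltXp, where its call was lost (adjusted p = 0.206), and at -0.83 in DeltXp_DeltXm (adjusted p = 0.0145). The offsets brought most of the changes named in these lists nearer to 0. Of 16 genes of 3′ end processing and RNA polymerase III, 6 rose and 7 fell in DeltXp, and 7 rose and 5 fell in DeltXp_DeltXm. Ssb, the La protein that binds the ends of polymerase III transcripts, rose by 2.65 (adjusted p = 6.4e-06) and 2.38 (adjusted p = 1.63e-05).

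The genes with the nearest pattern over the 7 libraries were found by the root-mean-square difference of centred log2 CPM. Snhg1 was nearest to Cdk13 (difference 0.117, Pearson r 0.99) and Sowahc (0.128, r 0.99), and Gas5 to Suv39h2 (0.149, r 0.97) and Nup88 (0.150, r 0.97). Malat1 was nearest to Fam43a (0.227, r 0.90) and Hexim1 (0.323, r 0.81), and Neat1 to Vps13d (0.220, r 0.88) and Rtn4ip1 (0.223, r 0.88). Snhg12 was nearest to Cand2 (0.209) and Sgk1 (0.212), Snhg3 to Lrp2 (0.368) and Zfp365 (0.391), and Rpph1 to Tmsb10 (0.469) and Dad1 (0.504). The likeness follows the same 7 libraries and their group differences.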

How the data were processed

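RNA-seq was measured in 9 libraries. The authors deposited raw read counts per gene. The submitters' processing notes name FastQC, STAR 2.7.9a, featureCounts 2.0.1 and the GRCm38 (mm10) build. The sources used here give no strand setting, annotation release or treatment of multi-mapping reads. The WT_clone table was used in part (11512 genes), so only Gas5 was compared there. Symbols, biotypes, transcripts and GC content came from GENCODE M21, and own exon bases from its exons and the deposited coordinates.

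After filterByExpr and TMM scaling, the quasi-likelihood test of edgeR 4.0.16 (R 4.3.3) was run with group as the only term. Adjustment by Benjamini-Hochberg covered the 15331 genes that passed the filter; 40070 did not. A gene was called at an adjusted p under 0.05. Intervals are 95% intervals from the SE, with 4 degrees of freedom in the 7-library fit and more in the 9-library fit. The biological coefficient of variation was 33.7%. Alternatives were RLE, DESeq2 1.42.0, other filters, samples, scalings, offsets and left-out libraries. Replicates are numbered by the rep number in the titles; for DeltXp it conflicts with the library name.

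Members and lists were chosen with earlier results of these data known. Named genes were all members, the 2 with the lowest p per list and comparison, hosted snoRNAs with at least 10 counts, and 2 nearest patterns per member. Genes overlapping a member, and Rnu11, Rnu73b, Rny1 and Rny3, were added after the values were seen.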

Additional observations from a re-analysis of the deposited data

How the results depend on the processing

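Gas5 and Snhg1 kept their calls against WT_EV in every alternative run except offsets for GC content and length. Gas5 in DeltXp also lost its call without DeltXp replicate 2 (0.61) and in the 9-library fit of shared genes (0.60), added after seeing the data. Rpph1 lost its call only with offsets, but it had 0 counts in every deletion library and passed the filter through WT_EV alone. Its kept calls are therefore no support. With no filter on low counts, Neat1 in DeltXp (adjusted p = 0.0413) and Malat1, Snhg3 and Snhg12 in DeltXp_DeltXm (0.0127, 0.00284 and 0.0281) were also called. With offsets, Gas5 in DeltXp was at -0.36 and Snhg3 at -0.31. Malat1 in DeltXp was at 0.03 with RLE size factors and with DESeq2, 0.01 in a fit of the 2 groups alone and 0.14 without WT_EV replicate 2, against -0.13 as reported. With 1 library left out, Malat1 in DeltXp ranged from -0.44 to 0.14 and Snhg3 from -0.44 to 1.15, and between the deletion groups Gas5 ranged from -0.02 to 0.71, Neat1 from -0.08 to 0.33, Snhg3 from -0.09 to 1.57 and Snhg12 from -0.70 to 0.78. Apart from Malat1, these changed sign without a DeltXp library, and Snhg12 also without DeltXp_DeltXm replicate 2 (0.21). With 1 library left out, Gas5 against WT_clone ranged from -0.73 to 0.15 in DeltXp and from -0.37 to 0.43 in DeltXp_DeltXm, with the highest of both without WT_clone replicate 2, and the latter was 0.02 with RLE and 0.05 without DeltXp_DeltXm replicate 2. With offsets they were -1.16 and -0.70. The cause was not tested. Correlations of same-numbered libraries were -0.20 to 0.06, so no pairing by the rep number was seen. With 2 libraries per deletion group, deviations within a group mirror each other, so the values between the deletion groups are not separate. Whether the DeltXp library names, whose numbers are crossed, pair the samples was not settled. With the replicate block, 10638, 9668 and 92 genes were called in DeltXp, in DeltXp_DeltXm and between them. Snhg3 in DeltXp was then at -0.01 and Gas5 in DeltXp_DeltXm against WT_clone at 0.01. The Gas5 call between WT_clone and WT_EV was lost under the block (0.73, adjusted p = 0.139). With the DeltXp numbers crossed, added after seeing the data, 11253, 10447 and 1573 genes were called.

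Genes called in DeltXp_DeltXm against WT_EV numbered 10243, and 6679 with offsets. Between the deletion groups 68 were called. This became 1436 with no filter, 10 with the 2 groups alone, 36 with offsets, 1167 with DESeq2 and 2 to 480 with 1 library left out. The share higher among these calls was 63.2% with TMM, 47.8% with RLE and 46.7% with the block. In the shared genes, 552 to 1057 genes were called for WT_clone against WT_EV, 692 to 1344 for DeltXp against WT_clone and 415 to 949 for DeltXp_DeltXm against WT_clone with 1 library left out. Offsets, added there after seeing the data, gave 524 and 229 for the last 2. The untailed minus tailed difference was -11.12, -13.39 and -13.36 in WT_EV, DeltXp and DeltXp_DeltXm with a prior count of 0.5, and -8.33, -10.29 and -10.37 without Malat1 and Neat1. Rpph1 rests on 102 counts in all, and it passed the filter on low counts through WT_EV alone.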
